A study of Mus musculus with 19 samples.

Results

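Periportal hepatocyte genes were followed through early and late stages of a transgenic mouse model of liver cancer. The 8 genes were Sds, Sdsl, Hal, Gls2, Cyp2f2, Hsd17b13, Hsd17b6 and Etnppl, chosen by gene symbol in the deposited count table, and all 8 of 8 were found among its 55421 genes. No threshold on a measured value entered the rule, although the set was drawn up with earlier results of these libraries known. All 8 had enough counts to be tested in each of the 7 comparisons made.

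The study sequenced polyadenylated RNA from liver of adult male C57BL/6 mice carrying an inducible AP-1/c-Jun~Fra2 transgene, in which the AP-1 subunits c-Jun and Fra-2 (encoded by Jun and Fosl2) form one dimer, and from control littermates. In mutants the transgene was switched on at weaning, at 3 weeks of age, by removing doxycycline, and the controls went through the same removal, so every library comes from a mouse taken off doxycycline. The 5 groups were 6 control livers and 3 mutant livers after 2 months, and 3 control livers, 3 macroscopically tumour-free areas of mutant liver and 4 visible tumours after 9 months. The tumour-free areas came from the same 3 mutants as the tumours, of which mutant 1 gave 2 tumours and mutants 2 and 3 gave 1 each, so the 19 libraries represent 15 animals. Which promoter and cell type drive the transgene, and which alleles the controls carry, is not given in the sources used here.

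Hepatocytes differ along the axis from the portal vein to the central vein. Those around the portal tract, which meet oxygen- and nutrient-rich blood first, are known for amino acid breakdown, urea synthesis and glucose production, whereas those around the central vein carry out glutamine synthesis and much of drug oxidation under Wnt signalling. Sds, Sdsl, Hal and Gls2 encode enzymes of the first kind that release ammonia from serine, histidine or glutamine. Cyp2f2 encodes a cytochrome P450, Hsd17b13 a lipid droplet protein, Hsd17b6 a steroid and retinol dehydrogenase, and Etnppl an enzyme that breaks down phosphoethanolamine and also releases ammonia. Levels here come from whole tissue, in which fewer cells of a type and less RNA per cell cannot be told apart.

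The 8 genes lie on 4 chromosomes of the mouse genome build GRCm38, each annotated as protein coding. Sdsl (ENSMUSG00000029596.13, chr5:120458186-120472810) and Sds (ENSMUSG00000029597.14, chr5:120476526-120483932) are neighbours on opposite strands, and Hsd17b13 (ENSMUSG00000034528.15) is at chr5:103955440-103977410. Chromosome 10 carries Hal (ENSMUSG00000020017.14, chr10:93488768-93519304), Hsd17b6 (ENSMUSG00000025396.7, chr10:127990936-128007611) and Gls2 (ENSMUSG00000044005.13, chr10:128194457-128210004). Cyp2f2 (ENSMUSG00000052974.8) is at chr7:27119909-27133660 and Etnppl (ENSMUSG00000019232.14) at chr3:130617448-130637521. In the exons, 12.1% of the 50-base words of Hsd17b6 also occurred in retinol dehydrogenase genes such as Rdh7, Rdh9 and Rdh16, so its counts are uncertain to the extent that reads from these copies were split between them. Exons of Sds overlap Plbd2 by 360 bases, those of Cyp2f2 overlap Gm15883 by 274 bases and those of Gls2 overlap Spryd4 by 97 bases, each on the opposite strand. The library kit keeps the strand, but the strand setting of the counting is not given in the sources used here.

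Promoters are shown for Hal, which was called lower in no comparison with controls, and for Hsd17b6 and Etnppl, whose levels fell furthest at 2 months. Each is the RefSeq window on GRCm38.p6 from 250 bases before to 50 bases after the annotated start, written in the direction of transcription, with matches to the motifs named below in capitals. Hal is at chr10:93488518-93488817 (plus strand), Hsd17b6 at chr10:128007562-128007861 (minus strand) and Etnppl at chr3:130617325-130617624 (plus strand).
Hal: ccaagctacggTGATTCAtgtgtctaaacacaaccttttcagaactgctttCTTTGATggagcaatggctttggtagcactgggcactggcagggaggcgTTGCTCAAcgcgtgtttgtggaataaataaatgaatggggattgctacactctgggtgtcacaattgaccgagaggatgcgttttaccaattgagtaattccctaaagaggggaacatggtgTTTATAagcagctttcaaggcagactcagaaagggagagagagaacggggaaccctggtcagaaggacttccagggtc
Hsd17b6: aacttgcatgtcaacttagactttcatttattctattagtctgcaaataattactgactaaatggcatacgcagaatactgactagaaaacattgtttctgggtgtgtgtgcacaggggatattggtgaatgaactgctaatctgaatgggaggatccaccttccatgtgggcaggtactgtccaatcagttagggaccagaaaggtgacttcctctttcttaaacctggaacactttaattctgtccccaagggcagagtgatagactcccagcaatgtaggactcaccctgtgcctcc
Etnppl: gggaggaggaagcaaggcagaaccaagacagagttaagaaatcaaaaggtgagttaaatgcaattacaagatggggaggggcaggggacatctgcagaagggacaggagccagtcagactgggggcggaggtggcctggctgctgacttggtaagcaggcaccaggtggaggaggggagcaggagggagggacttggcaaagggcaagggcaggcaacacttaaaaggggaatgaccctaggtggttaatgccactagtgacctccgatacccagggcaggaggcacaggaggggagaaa
The motifs were searched on both strands, with N standing for any base. They were AP-1 (TGANTCA), the cyclic AMP response element (TGACGTCA), the TATA box (TATAAA), a partial HNF4 element (CAAAGTCCA) and FOXA (TGTTTAC). The others were the HNF1 element, C/EBP (TTGCNNAA), TCF (CTTTGAT) and a partial glucocorticoid receptor element (TGTTCT). The Hal window held an AP-1 match at -239 from the start, TGATTCA, in which T stood at the free position N. It also held a TCF match at -199, a C/EBP match at -150 and a TATA box on the opposite strand at -28. The windows shown for Hsd17b6 and Etnppl held none of the 9 motifs, nor did another window of each or that of Hsd17b13. That of Cyp2f2 held the partial glucocorticoid receptor element at +33. No window was available for Sds, Sdsl and Gls2, so these were not searched. No motif overlapped another in these windows. Of all 32851 promoter windows of this length, 7.81% held the AP-1 motif as written, 3.73% the TCF motif and 10.8% the C/EBP motif. The TATA box was in 13.6% and the partial glucocorticoid receptor element in 19%. A match is a stretch of letters and not a measured binding site.

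Libraries held 14294611 to 18826201 counts at 2 months and 18977477 to 22062341 at 9 months. Fosl2 was at 8.37 to 19.8 CPM (a counts-per-million scale) in the 9 controls and at 405 to 936 in the 10 mutant libraries, and Jun at 10.5 to 387 against 334 to 785, with 1 control at 9 months giving the 387. These values are taken after scaling each library by the trimmed mean of M values (TMM). The labels call the material mostly hepatocyte, and the 8 hepatocyte markers summed to 135823 to 179848 CPM in the controls and to 65885 to 108219 in the mutant libraries. Alb made up much of the control sum, at means of 101355 and 92306 CPM at 2 and 9 months. Its means were 30718 in 2-month mutants, 28042 in tumour-free liver and 53319 in tumours. In the tests below, 4, 2 and 2 of the 8 markers were called lower and 0, 1 and 0 higher, with median log2 changes of -0.45, -0.33 and -0.56. The 8 stellate cell markers summed to 237 to 386 CPM in controls and 454 to 857 in mutant libraries, and the 8 macrophage markers to 242 to 601 and 250 to 813. The 8 bile duct markers summed to 75.6 to 142 CPM in controls, 94.1 to 602 in non-tumour mutant liver and 94.1 to 3087 in tumours, of which Spp1 made up 2352 and 2994 in the tumours of mutant 1. The part of these shifts in the results below was not tested.

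In control liver the 8 genes covered a wide range of levels, with Cyp2f2 first and Sdsl last at both ages. Per kilobase of exon, in 2-month controls, Cyp2f2 was at 824 ± 180 CPM per kb (mean ± SD, n = 6), Hsd17b13 at 212 ± 13, Gls2 at 130.4 ± 16.3, Sds at 121 ± 28.8, Hal at 86.3 ± 12.8, Hsd17b6 at 86.2 ± 46.7, Etnppl at 15.9 ± 3.81 and Sdsl at 7.82 ± 2.05. The intervals of mean ± SD overlapped between Gls2 and Sds, Sds and Hal, and Hal and Hsd17b6, so the order within these pairs is not resolved. In 9-month controls the order was Cyp2f2 at 653 ± 76.9 (n = 3), Hsd17b13 at 218 ± 34.4, Sds at 175 ± 45.2, Gls2 at 131 ± 14.2, Hsd17b6 at 98.4 ± 18.8, Hal at 61.8 ± 10.7, Etnppl at 17.1 ± 3.63 and Sdsl at 7.53 ± 1.29. Here the intervals overlapped between Hsd17b13 and Sds, Sds and Gls2, and Gls2 and Hsd17b6. The lengths joined all annotated exons of a gene, and the order depends on them. Etnppl, with 8262 bases, and Hsd17b6, with 1575, had mean levels of 131.6 and 135.8 CPM in 2-month controls. All other values below are CPM, in which levels of different genes are not comparable.

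The controls at 9 and 2 months were compared first, to see how the genes behaved with age in control liver. None of the 8 passed edgeR's quasi-likelihood test at a Benjamini-Hochberg adjusted p under 0.05 over all genes tested, where 11.9% of 13545 genes did. At an unadjusted p under 0.05 there were 2 (28.8% of all genes tested), and DESeq2 and limma voom each called 1. Those 2 were Hal, the enzyme that turns histidine into urocanate, at a log2 change of -0.49 ± 0.15 (± standard error, SE, here and below; adjusted p = 0.0509), and Sds, the enzyme that turns serine into pyruvate, at 0.52 ± 0.21 (adjusted p = 0.134). Hal was the gene called by both other tools. No gene of the 8 had age groups that did not overlap, against 17.3% of all genes tested. Each age was sequenced in its own run, so age and run cannot be told apart.

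**Figure D1:**
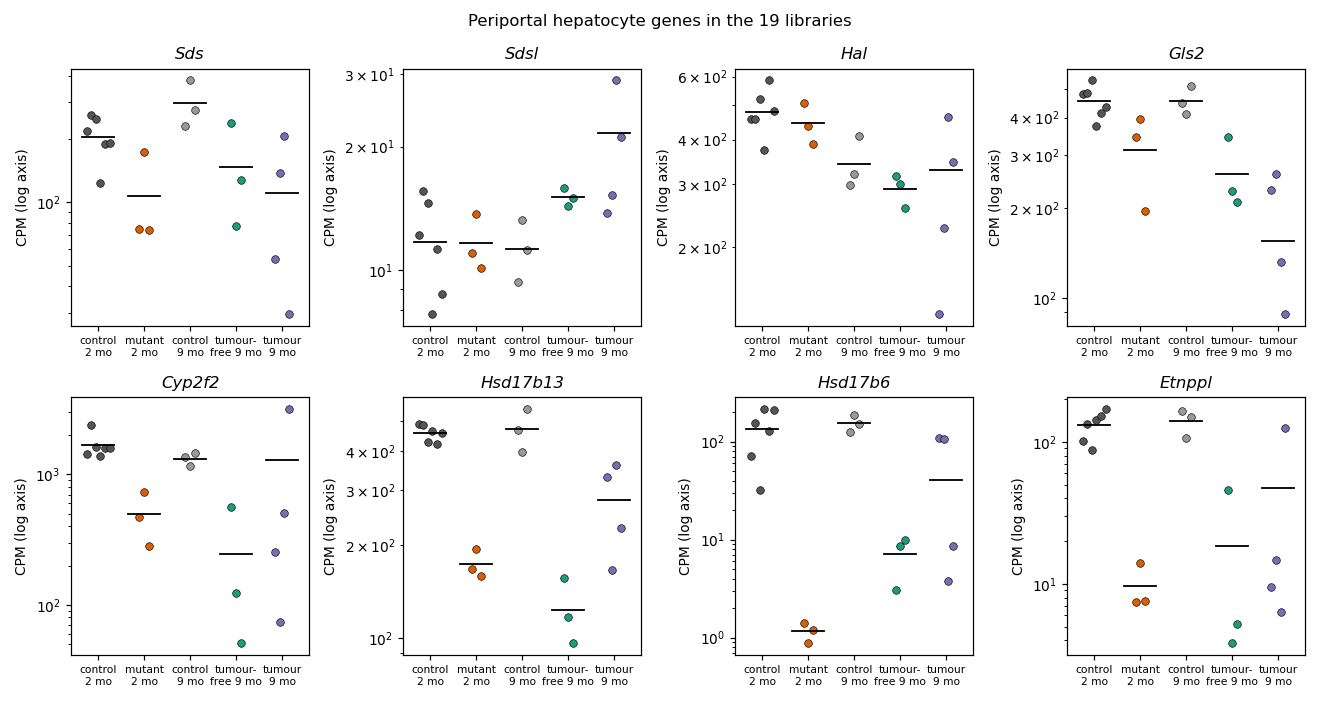
Level of each of the 8 genes in all 19 libraries, as CPM on a log axis, by group (1 panel per gene, 1 point per library). Hsd17b6 dropped from 31.9 to 215 CPM in 2-month controls to 0.882 to 1.42 in 2-month mutants, while Hal and Sdsl overlapped between those groups.

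After 2 months of transgene expression, 6 of the 8 genes were lower in mutant liver than in control liver and none was higher. Among all 13773 genes tested, 42.7% were called, 20.4% lower and 22.3% higher. The 6 were Sds, Gls2, Cyp2f2, Hsd17b13, Hsd17b6 and Etnppl, and the pair not called was Hal and Sdsl. The median log2 change of the 8 was -1.16, beside 0.01 for all genes tested. In 4 of them every mutant was below every control, which held for 19.1% of all genes tested.

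Hsd17b6, which oxidises androgen and retinol metabolites, showed the widest gap. Its level in the 6 controls ran from 31.9 to 215 CPM with a median of 143, and the 3 mutants were at 1.42, 0.882 and 1.2 CPM, from 24, 14 and 26 counts. The groups did not overlap, although the controls themselves spread 6.72-fold. The log2 change was -6.84 ± 0.78 (adjusted p = 8.62e-05), a 115-fold lower fitted level. Etnppl, the phosphoethanolamine lyase, had a lowest, median and highest control level of 87.6, 139 and 170.3 CPM and mutant levels of 7.50, 14 and 7.63. All 3 mutants lay far under the controls, with a log2 change of -3.76 ± 0.30 (adjusted p = 4.65e-06).

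Cyp2f2, which oxidises small aromatic compounds, ran from 1384 over a median of 1589 to 2387 CPM in controls and was at 474, 731 and 283 CPM in the mutants. Its groups did not overlap and the log2 change was -1.74 ± 0.28 (adjusted p = 0.00059). Hsd17b13, the lipid droplet protein, had the tightest control values of the set in proportion to its mean, from 423 over 461 to 490.0 CPM, and mutant values of 167, 194 and 159. It fell by 1.40 ± 0.11 on the log2 scale (adjusted p = 1.97e-06), the smallest p of the 8. Hsd17b6, Etnppl, Cyp2f2 and Hsd17b13 were thus the 4 genes whose groups were fully apart.

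The amino acid enzymes moved less. Sds was at 124, 205 and 259 CPM (lowest, median and highest) in controls and at 75.0, 173 and 74.1 in mutants, so that mutant 2 lay within the control range. Its log2 change was -0.93 ± 0.31 (adjusted p = 0.0324). Gls2, the liver-type glutaminase, was at 375, 456 and 533 CPM in controls and 343, 396 and 196 in mutants, again with mutant 2 inside the control range, and its log2 change was -0.53 ± 0.20 (adjusted p = 0.0473). Both calls are near the threshold: the adjusted p ran from 0.00144 to 0.153 for Sds and from 0.0193 to 0.181 for Gls2 over 16 alternatives, and each call was lost when mutant 1 or mutant 3 was left out, at 0.114 and 0.144 for Sds and 0.057 and 0.131 for Gls2. The Gls2 call was also lost without any of 5 single controls (1, 2, 3, 5 or 6) and that of Sds without control 1, 2 or 3.

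Hal was at 373, 469 and 586 CPM in controls and 507, 438 and 389 in mutants, wholly within the control range, with a log2 change of -0.10 ± 0.14 (adjusted p = 0.596). Sdsl, the less studied relative of Sds next to it on the chromosome, was at 7.83, 11.7 and 15.6 CPM in controls and 11, 13.7 and 10.1 in mutants. Its log2 change was 0.00 ± 0.21 (adjusted p = 0.992). Scaling by library size alone, with no TMM, shifted the median of all genes to 0.29 and gave 5445 higher and 1562 lower genes in place of 3067 and 2816. Under it Hal stood at 0.17 and Sdsl at 0.27, both still under that shift, and Sds and Gls2 were no longer called.

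**Figure D2:**
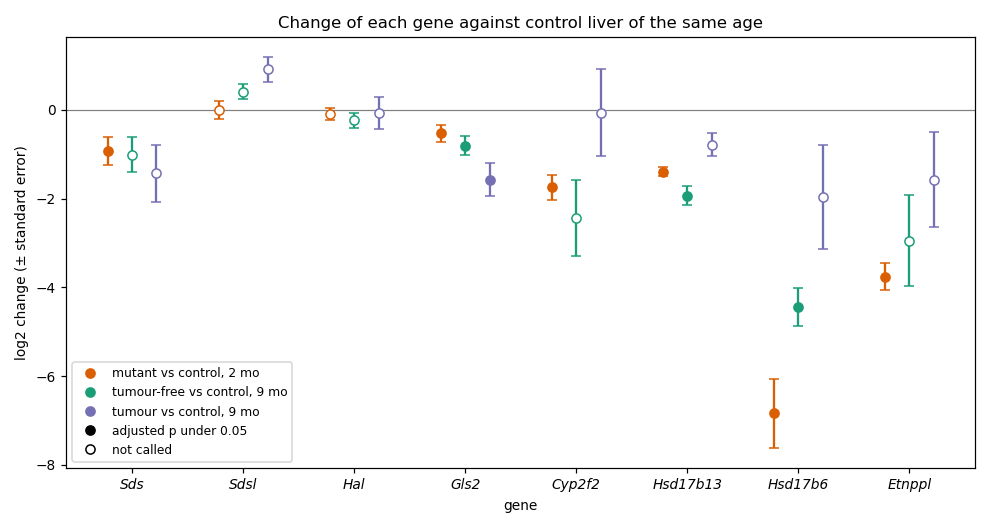
Log2 change of each gene against control liver of the same age (points, with bars of ± 1 SE), for 2-month mutant liver, 9-month tumour-free mutant liver and 9-month tumours, filled where called by edgeR's quasi-likelihood test. The 9-month pair shares its 3 controls. The widest bars are those of Hsd17b6 and Etnppl in tumours (SE 1.17 and 1.07), Etnppl in tumour-free liver (1.03) and Cyp2f2 in tumours (0.98).

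In tumour-free liver of 9-month mutants, 3 of the 8 genes fell against controls of the same age: Hsd17b6, Hsd17b13 and Gls2. None rose, and among all 14352 genes tested 34.9% were called, 16.8% lower and 18.1% higher. The median log2 change of the 8 was -1.48, beside -0.01 for all genes. In 5 genes every mutant was below every control (23.6% of all genes tested), these 3 with Cyp2f2 and Etnppl, and in 1, Sdsl, every mutant was above every control (25.6%).

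Hsd17b6 was at 127, 186 and 152 CPM in the 3 controls and at 3.07, 8.63 and 9.88 in tumour-free liver of mutants 1, 2 and 3. All mutants were far under all controls, at a log2 change of -4.43 ± 0.43 (adjusted p = 0.000206). Hsd17b13 was at 466, 397 and 546 CPM in controls and 156, 117 and 96.6 in mutants, and fell by 1.94 ± 0.22 on the log2 scale (adjusted p = 0.000317). Gls2 was at 446, 411 and 508 CPM against 344, 227 and 209, with a log2 change of -0.81 ± 0.21 (adjusted p = 0.0197). The groups of both genes were apart, by a narrow margin in Gls2, whose highest mutant reached 344 CPM. The Gls2 call was lost without control 3, mutant 2 or mutant 3 (adjusted p 0.0766, 0.0947 and 0.0721, within 0.00136 to 0.123 over 14 alternatives).

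In Cyp2f2, Etnppl and Sds, mutant 1 stood apart from the other mutants, on the side of the controls. Cyp2f2 was at 1349, 1156 and 1464 CPM in controls and at 559, 124 and 50.9 in mutants 1, 2 and 3, with a log2 change of -2.44 ± 0.86 (adjusted p = 0.0736). Etnppl was at 165, 107 and 151 CPM in controls and 45.9, 3.83 and 5.25 in mutants, with -2.95 ± 1.03 (adjusted p = 0.0751). Sds was at 232, 380.5 and 275 CPM in controls and 237, 76.9 and 129 in mutants, with -1.01 ± 0.40 (adjusted p = 0.0841). In each, the tumour-free liver of mutant 1 held the highest mutant level, and for Sds it lay inside the control range. With that library left out the 3 genes were called. Their log2 changes were -3.91 for Cyp2f2 (adjusted p = 0.000321), -4.95 for Etnppl (2.31e-05) and -1.52 for Sds (0.00663). This made 6 called genes of the set, where 4757 of all 14790 genes tested were called. The adjusted p over 14 alternatives ran from 0.000321 to 0.237 for Cyp2f2, from 2.31e-05 to 0.22 for Etnppl and from 0.00555 to 0.28 for Sds.

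Hal was at 298, 321 and 410.2 CPM in controls and 317, 300.5 and 258 in tumour-free liver, overlapping, at -0.24 ± 0.17 (adjusted p = 0.319). Sdsl was at 9.37, 13.2 and 11.2 CPM in controls and 15.9, 14.3 and 15 in tumour-free liver, at 0.41 ± 0.17 (adjusted p = 0.0974). The Sdsl groups were apart by a narrow margin, and without control 2 the gene was called at 0.55 (adjusted p = 0.0411, within 0.00615 to 0.304 over 14 alternatives). Scaling by library size alone moved the median of all genes to 0.42, with 5706 higher and 1178 lower calls in place of 2599 and 2410. Under it Sdsl was called higher at 0.84 (adjusted p = 0.00615), Hal turned to 0.19, which is under the shift, and Gls2 at -0.39 was no longer called.

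In tumours against the same 3 controls, only Gls2 was called, lower at -1.58 ± 0.38 (adjusted p = 0.0229), where 25.1% of all 14332 genes tested were called, 11.3% lower and 13.8% higher. The counts of the 2 tumours of mutant 1 were summed for the tests, so n = 3 animals. The median log2 change of the 8 was -1.11, beside 0.01 for all genes tested. Tumours of all 3 animals were below every control in 4 genes (21.5% of all genes tested), Gls2, Hsd17b13, Hsd17b6 and Sds, and above every control in Sdsl (24.5%). Gls2 was at 229 and 259 CPM in the tumours of mutant 1, 132 in that of mutant 2 and 88.3 in that of mutant 3, against 411 to 508 in controls. This call was lost on leaving out control 1, 2 or 3 or the tumour of mutant 2 (adjusted p 0.0656, 0.0612, 0.0822 and 0.0541, within 0.000282 to 0.0822 over 15 alternatives).

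Single tumours differed widely from each other in several of the genes. Cyp2f2 was at 255 and 74.0 CPM in the tumours of mutant 1, 507 in that of mutant 2 and 3167 in that of mutant 3, which exceeded all 9 controls of either age. The 4 tumours covered a 42.8-fold range, or 5.40 on the log2(CPM + 1) scale, against 0.34 in the 3 controls and a median tumour range of 0.60 over all tested genes. Etnppl followed the same split, at 9.48, 14.7 and 6.37 CPM in the tumours of mutants 1 and 2 and 125 in that of mutant 3, within the control range of 107 to 165. The range over tumours was 19.6-fold. Tumour-free liver of the same animals was spread widely as well, over a 10.98-fold range in Cyp2f2 and a 12-fold range in Etnppl, and with the tumours of mutant 1 taken as 1 value the Cyp2f2 range by animal was 19.2-fold in tumours. The difference in spread between the tissues was not tested. The tumour of mutant 3 thus held 239% of the mean control level of Cyp2f2 and 88.3% of that of Etnppl, whereas its own tumour-free tissue held 50.9 and 5.25 CPM, a ratio of 62.2 and 23.7 between the 2 tissues of that animal.

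Hsd17b6 was split differently. Both tumours of mutant 1 were at 109.7 and 108 CPM, 70.8% and 69.4% of the control mean, while the tumour-free tissue of that animal was at 3.07, a ratio of 35.7 and 35. The tumours of mutants 2 and 3 were at 3.80 and 8.68 CPM, 2.45% and 5.60% of the control mean and close to the 8.63 and 9.88 of their tumour-free tissue. A high level of Cyp2f2 and Etnppl and a high level of Hsd17b6 thus occurred in tumours of different animals.

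Sds was at 54.0 and 138 CPM in the tumours of mutant 1, 207 in that of mutant 2 and 29.5 in that of mutant 3, a 7.0-fold range. The tumour of mutant 3, highest in Cyp2f2 and Etnppl, was lowest in Sds and Gls2, at 9.97% and 19.4% of the control means. Hal was at 130.2 and 227 CPM in the tumours of mutant 1 and at 463 and 345 in those of mutants 2 and 3, against a control range of 298 to 410.2. The tumours of mutant 1 were below that range, that of mutant 2 above it and that of mutant 3 inside it. Hsd17b13 was the most even of the lowered genes, at 331, 166, 360.5 and 226 CPM, all under the controls, and Sdsl was at 13.8, 15.3, 29.0 and 21.1 CPM, all above them.

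**Figure D3:**
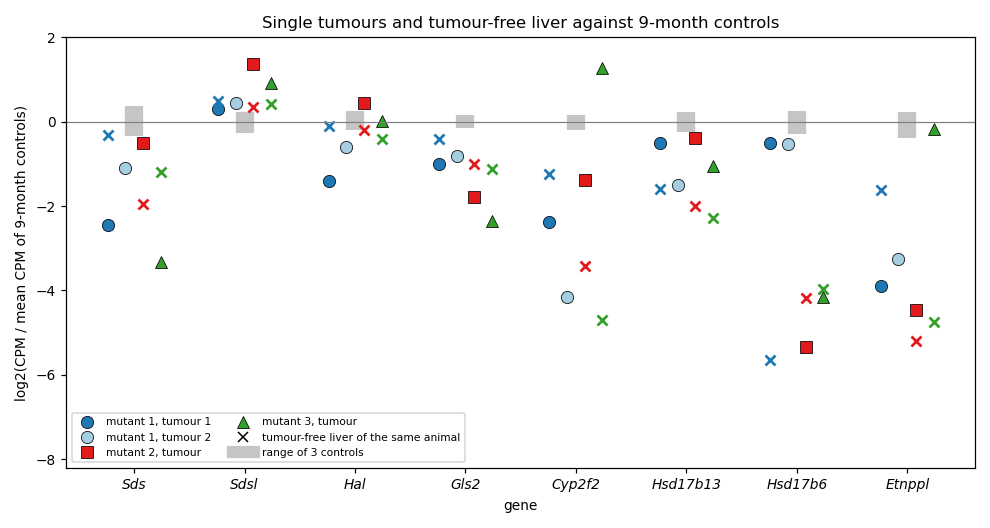
Level of each gene in the 4 single tumours and in tumour-free liver of the same animals (crosses), as log2 of the ratio to the mean of the 3 controls at 9 months, whose range is the grey band. The tumour of mutant 3 lies above the band for Cyp2f2 and within it for Etnppl, and the tumours of mutant 1 lie just under it for Hsd17b6.

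With so wide a spread the tests moved with single animals. Without the tumour of mutant 3, Cyp2f2 was at -1.98 (adjusted p = 0.0328) and Etnppl at -3.91 (adjusted p = 0.00139), against -0.06 ± 0.98 (adjusted p = 0.969) and -1.58 ± 1.07 (0.32) with it. Without those of mutant 1, Hsd17b6 was at -4.63 (adjusted p = 0.00113) and Sdsl at 1.16 (0.0172), against -1.97 ± 1.17 (0.262) and 0.91 ± 0.28 (0.0527). Without that of mutant 2, Sds was at -2.21 (adjusted p = 0.0382) and Hsd17b13 at -0.99 (0.0301), against -1.43 ± 0.65 (0.154) and -0.78 ± 0.26 (0.066). No single animal left out gave more than 3 called genes of the 8: there were 3 without mutant 1, 2 without mutant 2 and 3 without mutant 3, where 21.9%, 22.3% and 24.1% of all genes tested were called. The adjusted p over 15 alternatives ran from 0.0328 to 0.998 for Cyp2f2, 0.00139 to 0.644 for Etnppl, 0.00113 to 0.503 for Hsd17b6, 0.00783 to 0.155 for Sdsl, 0.0382 to 0.363 for Sds and 0.00413 to 0.384 for Hsd17b13. Hal, at -0.08 ± 0.36 (adjusted p = 0.896), was called in none of them. Scaling by library size alone moved the median of all genes to 0.48, with 4664 higher and 818 lower calls in place of 1971 and 1622; it turned Cyp2f2 to 0.32 and Hal to 0.38, both under the shift, called Sdsl at 1.37 (adjusted p = 0.0118) and dropped the Gls2 call.

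The bile duct marker sum differed between the same tumours, at 2396 and 3087 CPM in those of mutant 1, 417 in that of mutant 2 and 94.1 in that of mutant 3, and the hepatocyte marker sum was 99064, 76146, 108219 and 88109. Immediate-early genes and heat shock genes such as Hspa1a, which respond to handling as well as to stimuli, were summed as 1 list of 10. They came to 1920 and 1848 CPM in the tumours of mutant 1. They summed to 186 and 229 in the tumours of mutants 2 and 3. Tumour-free liver of mutants 1, 2 and 3 was at 1293, 153 and 243, and controls 1, 2 and 3 at 9 months at 4466, 217 and 163. The part of these sums in the differences between tumours, or between tumour-free samples, was not tested.

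Within the mutants at 9 months, tumours were then set against the tumour-free areas. None of the 8 genes was called by edgeR's quasi-likelihood test, where only 2 of 14566 genes tested (0.0137%) were, the endothelial tip cell genes Esm1 and Apln, and with the animal as a block 1 gene was. At an unadjusted p under 0.05, which 9.98% of all genes tested had, there was 1, Hsd17b13, at 1.16 ± 0.27 (adjusted p = 0.261), which DESeq2 also called and limma voom did not. It was the gene of the 8 whose tumours were all above all tumour-free samples (7.79% of all genes tested), at 226 to 360.5 CPM by animal against 96.6 to 156. Cyp2f2 was at 2.37 ± 1.32 and Hsd17b6 at 2.49 ± 1.27, with adjusted p of 0.627 and 0.595. The log2 changes and adjusted p in this paragraph come from the fit without the animal block, which leaves the pairing of tissues out. Gls2 was lower in all 4 tumours than in the tumour-free tissue of the same animal, at ratios of 0.664, 0.753, 0.581 and 0.422, but the groups overlapped, at -0.75 ± 0.41 (adjusted p = 0.615).

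The difference between the early effect and each late effect was tested as an interaction, that is, the log2 change at 9 months minus that at 2 months, each against its own controls. No gene of the 8 passed in either case, by edgeR's quasi-likelihood test. For tumour-free liver 1.52% of 14707 genes passed, and at an unadjusted p under 0.05 there were 2 of the 8 (12.8% of all genes tested), Hsd17b6 at 2.42 ± 0.88 (adjusted p = 0.248) and Hsd17b13 at -0.53 ± 0.21 (adjusted p = 0.285); DESeq2 and limma voom called none. For tumours 2.62% of 14701 genes passed and 4 of the 8 had an unadjusted p under 0.05 (16.9% of all genes tested): Hsd17b6 at 4.92 ± 1.40 (adjusted p = 0.0847), Gls2 at -1.01 ± 0.40 (0.216), Hsd17b13 at 0.64 ± 0.23 (0.172) and Sdsl at 0.95 ± 0.36 (0.197). DESeq2 called 1 there and limma voom none. Time and sequencing run cannot be told apart in these contrasts. Under library size alone the split of higher and lower calls over all genes was 92 and 87 in place of 68 and 155 for tumour-free liver, and 173 and 156 in place of 131 and 254 for tumours, with the median of all genes at 0.12 and 0.18.

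Other genes known for periportal expression gave a mixed picture. Of 16 tested, 2 rose and 4 fell at 2 months, 2 rose and 7 fell in tumour-free liver and 1 rose and 3 fell in tumours, with median log2 changes of -0.30, -0.54 and -0.79. Beside this list and each list below, 22.3%, 18.1% and 13.8% of all genes tested were called higher in these comparisons. The shares called lower were 20.4%, 16.8% and 11.3%. Arg1, the last enzyme of the urea cycle, fell in the 3 comparisons, at log2 changes of -1.71, -1.71 and -1.90 (adjusted p 0.000246, 0.00179 and 0.0169), and Pigr, the transporter of IgA into bile, fell too, at -1.79, -3.39 and -5.06 (3.92e-06, 0.0156 and 0.0266). The urea cycle enzyme Ass1 changed by 0.04 and -0.17 without passing the test, and fell in tumours at -1.59 (adjusted p = 0.00715). Alb, albumin, fell in non-tumour liver at -1.72 and -1.72 (3.11e-06 and 0.000144) and stood at -0.82 in tumours without passing (0.111). Cdh1, the epithelial cadherin, rose by 2.06, 5.31 and 5.73 (adjusted p 3.84e-05, 5.75e-06 and 0.000417), and Apoa4, an apolipoprotein, rose by 5.78 and 1.76 in non-tumour liver (4.82e-05 and 0.00921).

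Pericentral genes moved in both directions in non-tumour liver. Of 18 tested, 3 rose and 9 fell at 2 months, 3 rose and 9 fell in tumour-free liver, and none rose and 11 fell in tumours, with medians of -0.54, -0.77 and -2.16 beside -1.16, -1.48 and -1.11 for the 8 periportal genes. Among all genes tested 20.4%, 16.8% and 11.3% were called lower. Glul, glutamine synthetase, fell at -0.98, -2.12 and -3.26 (adjusted p 6.86e-05, 0.0014 and 0.0064), Oat, ornithine aminotransferase, at -1.86, -3.64 and -5.33 (0.00836, 0.000991 and 0.00498) and Cyp2e1, the ethanol-oxidising P450, at -1.56, -2.56 and -4.59 (0.000457, 0.000423 and 0.0422). Nr1i3, the nuclear receptor CAR of the drug response, fell at -2.90, -3.54 and -4.54 (0.000615, 5.67e-05 and 0.000728). The genes that rose, named after their values were seen, were the ammonia transporter gene Rhbg, by 1.97 and 1.63 at 2 months and in tumour-free liver (adjusted p 0.000222 and 0.00975), the carboxylate transporter gene Slc13a3, by 1.41 and 1.23 (0.000193 and 0.00482), the Wnt target Axin2 at 2 months, by 0.65 (0.0461), and the P450 gene Cyp1a2 in tumour-free liver, by 0.59 (0.0481). The 18 genes summed to 12143 to 17347 CPM in controls and to 1827 to 3393 in the 4 tumours. The tumour of mutant 3, highest in Cyp2f2, had the lowest pericentral sum. Cyp2a5, named after its values were seen, made up a large part of the tumour sums and did not fall with them. Its mean was 1341 CPM in tumours (753 to 2516 by animal) and 1009 in 9-month controls. The difference between the lists was not tested.

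**Figure D4:**
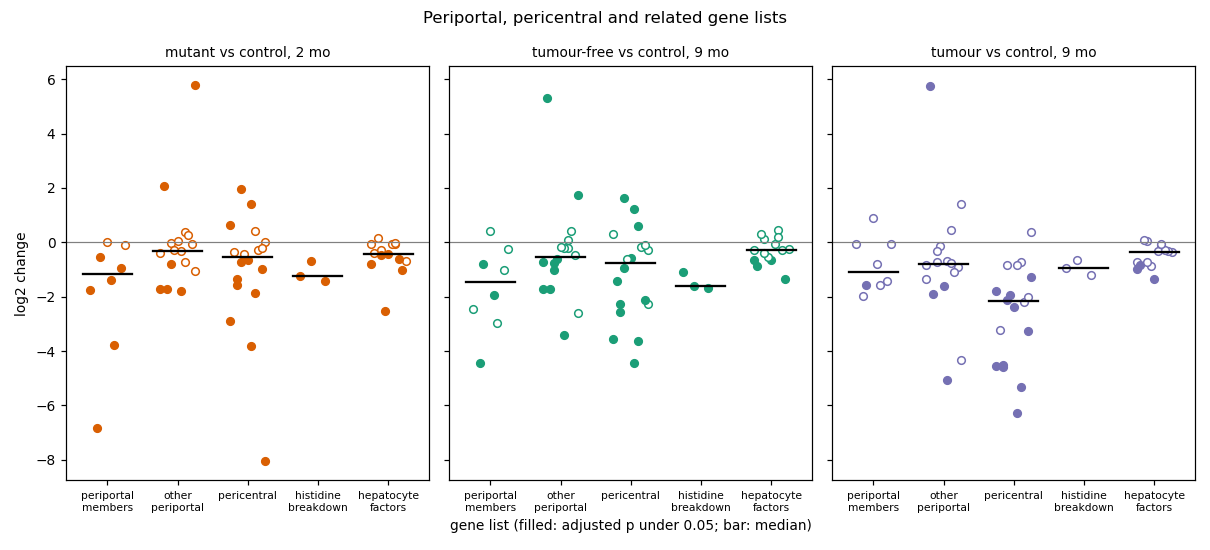
Log2 change of single genes (points, filled where called) and the list median (bar) for the 8 periportal genes, other periportal genes, pericentral genes and related pathway lists, in 1 panel per comparison against controls. Pericentral genes reach a median of -2.16 in tumours, and Cdh1 stands far above the other periportal genes in the 9-month comparisons.

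The next steps of histidine breakdown did not follow Hal. Uroc1, Amdhd1 and Ftcd, which carry urocanate on to glutamate, all fell at 2 months (3 of 3, at log2 changes of -0.69, -1.25 and -1.42, adjusted p 0.00239, 2.98e-05 and 1.75e-05) and in tumour-free liver (at -1.59, -1.08 and -1.68, adjusted p 0.000523, 0.000785 and 0.000132), where Hal stood at -0.10 and -0.24. The 3 genes had medians of -1.25 and -1.59, and every mutant lay below every control in each. Amdhd1 lies next to Hal, at chr10:93523338-93540033. In tumours they were at -0.65, -0.95 and -1.21 and none passed (adjusted p 0.164, 0.0523 and 0.0521). As with Hal, the tumours of mutant 1 were the lowest, with Ftcd at 144 and 210.2 CPM against 480.3 and 335 in those of mutants 2 and 3.

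Around Sds and Sdsl, of 9 tested genes of serine, glycine and threonine metabolism 1 rose and 5 fell at 2 months and in tumour-free liver, and 1 rose and 4 fell in tumours, with medians of -0.29, -0.36 and -0.46. Tdh and Phgdh had too few counts to be tested. The gene that rose was Psat1, of serine synthesis, at 1.16, 2.80 and 4.15 (adjusted p 0.0293, 0.0228 and 0.0243). Shmt1, which interconverts serine and glycine, fell at -1.02, -1.19 and -1.48 (0.0019, 0.00229 and 0.00332), and Amt, of the glycine cleavage system, at -1.37, -1.70 and -1.39 (0.00168, 7.53e-05 and 0.00666).

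In glutamine and glutamate metabolism, 5 of 11 genes rose and 2 fell at 2 months, and 2 rose and 2 fell in each 9-month comparison. Slc38a3, a glutamine transporter, fell at -0.97, -1.87 and -2.44 (adjusted p 0.000243, 0.000179 and 0.00184). Asns, asparagine synthetase, which uses glutamine, rose by 4.12, 7.33 and 6.26 (0.000639, 5.75e-06 and 0.00128).

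Among 14 other steroid and retinol dehydrogenase genes, 1 rose and 9 fell at 2 months, 1 rose and 11 fell in tumour-free liver and 6 fell in tumours. Hsd17b11, the relative of Hsd17b13 next to it on chromosome 5, fell at -0.62, -1.01 and -1.63 (adjusted p 0.000392, 0.00108 and 0.00252). Rdh7 and Rdh16, from the cluster beside Hsd17b6, fell at -1.19, -1.47 and -1.45 (3.41e-05, 0.000213 and 0.00593) and at -1.56, -2.95 and -3.97 (1.24e-05, 1.9e-05 and 0.0287). Their neighbour Rdh9 rose by 2.09 and 1.99 in non-tumour liver (2.75e-05 and 0.0207) and was at 1.02 in tumours (0.358), so genes that share exon words with Hsd17b6 moved in both directions. The tumours of mutant 1, near the controls in Hsd17b6, were at 619 and 448 CPM of Rdh7 and 47.9 and 26.4 of Rdh16, against 1311 to 1593 and 235 to 250.5 in controls.

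Of 9 tested genes of phosphoethanolamine metabolism, the pathway of the Etnppl substrate, 1 rose and 3 fell at 2 months, 2 rose and 4 fell in tumour-free liver and 1 rose and 3 fell in tumours. The ethanolamine kinases went opposite ways, with Etnk1 rising by 1.01, 1.08 and 1.03 (adjusted p 2.63e-05, 0.00198 and 0.0108) and Etnk2 falling at -1.47, -1.89 and -2.22 (0.00134, 0.000766 and 0.0206). Of 10 gluconeogenesis genes, 3 of them also in the periportal list above, 1 rose and 3 fell, 5 fell, and 2 fell in the same order of comparisons, with Pck1 at -1.05, -2.60 and -4.32 and not called (0.237, 0.0518 and 0.0538). Of 14 hepatocyte transcription factor genes none rose, and 6, 4 and 3 fell. The fatty acid sensor Ppara fell at -0.81, -0.66 and -0.98 (0.0318, 0.00442 and 0.0157) and the bile acid sensor Nr1h4 at -0.44, -0.64 and -1.33 (0.0156, 0.00848 and 0.00555). Hnf4a, a main regulator of hepatocyte genes, named after its values were seen, was at 0.17, 0.32 and 0.07 and not called (0.492, 0.312 and 0.876).

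Across the 18 values from 15 animals, the 8 genes did not vary as one group. On the log2(CPM + 1) scale Pearson's r was 0.869 for Cyp2f2 and Etnppl, 0.805 for Hsd17b13 and Etnppl and 0.789 for Cyp2f2 and Hsd17b13, but -0.119 for Sds and Sdsl, -0.0416 for Hal and Hsd17b6 and -0.613 for Sdsl and Gls2. The values share groups and, for the tumours, animals, and these are descriptions with no test. Among 9945 genes with a mean of at least 5 CPM, the closest to Hsd17b6 was Car3, a carbonic anhydrase (r = 0.969), to Gls2 Pxmp2 (0.965) and Suox, sulfite oxidase (0.949), to Hsd17b13 Pls3 (0.961) and Alb, albumin (0.959), and to Etnppl Ces1f, a carboxylesterase (0.95). For Cyp2f2 it was Tex2 (0.904), for Sds Enpep (0.854), for Hal Cnot2 (0.819) and for Sdsl Btg1 (0.812).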

How the data were processed

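Gene-level counts of 19 liver RNA libraries were used as deposited, as 1 table of 55421 genes; the submitters' processing notes name STAR 2.6.1a, RSEM, bedtools 2.27.1, DESeq2 1.22.2 and the builds GRCm38 and mm10, with no role or order, and per the labels the libraries were stranded. The values are whole numbers, and whether they are rounded RSEM estimates is not given in the sources used here. From these counts, a separate model per comparison, holding only the groups compared, was built in edgeR 4.0.16 (R 4.3.3) with filterByExpr, TMM scaling and the robust quasi-likelihood test, with Benjamini-Hochberg adjustment over all genes tested and a call at an adjusted p under 0.05. Counts of the 2 tumours of mutant 1 were summed in the fits and their CPM averaged in group values. Gene coordinates and exon lengths came from GENCODE M21, whose identifiers and versions matched all 8 genes, and promoters from RefSeq.

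Alternatives were DESeq2 1.42.0, limma voom 3.58.1, other size factors, library size alone, no filter, 1 fit over all 5 groups, a replicate block, tumours as separate libraries, each animal left out and all 9-month animals numbered 1 left out. The tumour and tumour-free samples pair by animal, as the labels give it (r of their deviations from 0.0457 to 0.317 within animals, -0.252 to 0.0187 between). The genes and lists were chosen with earlier results of these data known, and every gene of the set is described. Of other lists, called genes among the 4 with the smallest adjusted p in a comparison could be named, lists of at most 12 tested genes in full, and for likeness the protein-coding genes with the highest r, at most 2 per gene. The closest genes were ranked over 18 animal-by-tissue values, not 15 animals as planned. Depth limits genes with few counts, such as Hsd17b6 in 2-month mutants. Some members of the gene lists beside the set are not reported here by name.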

Additional observations from a re-analysis of the deposited data

Results flagged for a closer look

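Among the 16 sets of values examined (8 genes in the 6 controls at 2 months and in the 4 tumours), 3 held a library set far from the others. Chance sets off about 1 in 20 such sets when values are independent and normally distributed. CPM values need not be so, and 2 of the 4 tumours come from mutant 1. Cyp2f2 in control 2 at 2 months was at 2387 CPM, the nearest other control being at 1621. In the tumour of mutant 3, Cyp2f2 was at 3167 CPM with the nearest tumour at 507, and Etnppl at 125 CPM with the nearest at 14.7. The last pair comes from 1 library, and leaving it out changes both calls against controls, as given above.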

How the results depend on the processing

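Of the member calls against controls, those of Hsd17b6, Hsd17b13 and Etnppl at 2 months and of Hsd17b6 and Hsd17b13 in tumour-free liver held under every alternative run, and that of Cyp2f2 at 2 months under all but 1 fit over all 5 groups. The number of the 8 genes called at 2 months was 3 in 1 fit over all 5 groups, where 5160 of all 15167 genes tested were called. In tumour-free liver it was 6 with DESeq2, 5 with limma voom, 5 in 1 fit and 6 without all 9-month animals numbered 1. The last alternative also leaves out control 1. Of all genes tested, 5340 of 14352, 4995 of 14352, 5269 of 15167 and 4833 of 14642 were called in the same order. In tumours against controls it was 4 with DESeq2, 2 with no filter, 4 in 1 fit and 2 without the animals numbered 1, against 1 in the values reported. Those alternatives called 4459 of 14332, 3512 of 28013, 6612 of 15167 and 1743 of 14478 genes tested. Between tumours and tumour-free tissue it was 1 with DESeq2 and in 1 fit, where 442 of 14566 and 380 of 15167 genes tested were called. Between ages it was 1 with DESeq2, limma voom, library size alone and no filter, where 2214 of 13545, 1570 of 13545, 1636 of 13545 and 1592 of 26706 genes were called. In the tumour contrast over time it was 1 with DESeq2 and without the animals numbered 1, where 866 of 14701 and 659 of 14889 were. Leaving out single animals gave 4 to 6 called genes at 2 months, 2 to 6 in tumour-free liver, 0 to 3 in tumours, 0 between tumours and tumour-free tissue, and 0 to 1 between ages and in both contrasts over time.

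Over all genes, tumours against controls gave 5482 calls with library size alone, 6612 in 1 fit and 1743 without the animals numbered 1. Tumours against tumour-free tissue gave 442 with DESeq2, 0 with limma voom, 47 with no filter, 380 in 1 fit and 0 without the animals numbered 1. Between ages 1 fit gave 1056. The contrast over time gave 534 with DESeq2 and 54 in 1 fit for tumour-free liver, and 866 with DESeq2 and 659 without the animals numbered 1 for tumours. Leaving out single animals gave 4324 to 5832 at 2 months, 797 to 1899 between ages, 3351 to 4870 in tumour-free liver, 1419 to 3566 in tumours, 0 between tumours and tumour-free tissue, and 110 to 293 and 131 to 819 in the contrasts over time. The cause was not tested.

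Replicate numbers were shared between groups of different animals. Deviations of same-numbered samples had r from -0.327 to 0.347 at 2 months and from -0.146 to 0.462 in tumour-free liver. In tumours r ran from -0.0683 to 0.191, and between ages from -0.168 to 0.188. Differently numbered samples gave -0.418 to 0.443, -0.421 to 0.532, -0.168 to 0.18 and -0.239 to 0.315 in the same order. The 0.462 was for tumour-free liver of mutant 1 with control 1, against -0.421 and -0.0964 with controls 2 and 3. With the replicate number as a block, 3290 genes were called at 2 months, 384 between ages, and 54 and 4 in the contrasts over time for tumour-free liver and tumours. In tumours against controls 2 of the 8 genes were called under the block, Gls2 and Sdsl, where 2727 of 14332 genes tested were. With the animal as a block, tumours against tumour-free tissue gave 1 gene. Under the block Hsd17b13 was at -0.011 between ages, and over time Sds was at 0.16 and Etnppl at -0.32 in tumour-free liver and Hal at -0.039 in tumours.

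Directions that turned were of genes not called. At 2 months Sdsl was at 0.0015 with limma voom, 0.27 with library size alone, 0.011 with no filter and -0.14 to 0.093 on leaving out single animals, and Hal at 0.17 with library size alone. With library size alone Hal was at 0.19 in tumour-free liver and 0.38 in tumours, Cyp2f2 at 0.32 in tumours, and over time in tumour-free liver Sds was at 0.069 and Hal at 0.021. In tumours against controls without the animals numbered 1, Hal was at 0.12 and Cyp2f2 at 0.47, and single animals left out gave -0.38 to 0.25 and -1.98 to 0.48. Between tumours and tumour-free tissue, Sds was at 0.19 and Hsd17b6 at -0.58 without the animals numbered 1 and Hal at -0.012 with separate tumours; single animals left out gave -1.53 to 0.19 for Sds, -0.14 to 0.53 for Hal, -0.046 to 4.40 for Cyp2f2, -0.58 to 3.27 for Hsd17b6 and -1.42 to 3.85 for Etnppl. Between ages, Sdsl was at 0.053, Gls2 at 0.0099 and Etnppl at -0.042 without the animals numbered 1, and Gls2 at 0.0043 in 1 fit; single animals left out gave -0.20 to 0.053 for Sdsl, -0.091 to 0.058 for Gls2, -0.097 to 0.13 for Hsd17b13, -0.033 to 0.36 for Hsd17b6 and -0.042 to 0.24 for Etnppl. Over time in tumour-free liver Etnppl was at -0.059 with limma voom and -1.02 without the animals numbered 1, and single animals left out gave -0.56 to 0.48 for Sds, -0.23 to 0.018 for Hal and -1.16 to 1.33 for Etnppl. Over time in tumours Hal was at -0.014 with limma voom and -0.13 with separate tumours, and single animals left out gave -1.24 to 0.067 for Sds, -0.24 to 0.36 for Hal, -0.22 to 2.24 for Cyp2f2 and -0.13 to 2.75 for Etnppl.

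Of the related lists, histidine breakdown kept 3 of 3 lower in both non-tumour comparisons under every alternative and ran from 0 to 3 in tumours. Lower pericentral genes ran from 6 to 11, 8 to 11 and 7 to 16, and lower genes of the other periportal list from 3 to 6, 4 to 10 and 1 to 9, at 2 months, in tumour-free liver and in tumours. With 3 animals a group, 1 animal could decide a call, as in the tumours.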
